A study of Mus musculus with 16 samples.

Results

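The 84 genes described here carry the nuclear part of the oxidative phosphorylation system, and were taken by symbol from the 48709 genes of the count table. The symbol pattern covers the Nduf genes of complex I, Sdha to Sdhd of complex II, the Uqcr genes and Cyc1 of complex III, Cycs for cytochrome c, the Cox4 to Cox8 genes of complex IV and the Atp5 genes of complex V. By complex there were 35 genes for complex I, 4 for complex II, 9 for complex III, 1 for cytochrome c, 18 for complex IV and 15 for complex V. The other 2 genes, Atp5s and Atp5sl, matched by name only and are not counted among the subunits of any complex. No expression value entered the choice of genes.

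Oxidative phosphorylation passes electrons from NADH and succinate along complexes I to IV of the inner mitochondrial membrane to oxygen, and complex V, the ATP synthase, uses the proton gradient so made to form ATP. Most subunits are encoded in the nucleus, translated outside the organelle and imported, while a few core subunits of complexes I, III, IV and V are encoded by the mitochondrial genome and complex II is wholly nuclear. Synapses hold many mitochondria and have a high ATP demand, and transcripts for some nuclear subunits are known to reach axons and presynaptic endings.

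RNA was sequenced from mouse cerebral cortex (strain C57BL/6). Synaptosomes (SYN), which are pinched-off nerve endings collected by fractionation and which carry attached postsynaptic and other membranes, were prepared at 3 weeks, 5 months and 19 months of age. Total homogenate (TH), the cortical lysate before enrichment, was sequenced at 5 months only. Each of the 4 groups held 4 libraries, 16 in all. No group carried a transgene or a drug treatment by the labels, which give neither the sex of the mice nor whether an extract pooled several animals. The libraries of an age are called biological replicates by the submitters, and p-values measure the spread between these libraries. RNA was isolated with phenol-chloroform, and stranded libraries were made with a low-input total RNA kit that depletes 18S and 28S ribosomal RNA. In such bulk samples, fewer cells or endings of a type and less RNA in each cannot be told apart.

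Library totals ran from 10.6 to 21.7 M (megacounts). Transcripts of the mitochondrial genome took 36.1 to 57.8% of counts in SYN and 20.2 to 25.1% in TH. The 84 nuclear genes took 0.423 to 0.561% of the remaining counts in SYN and 0.454 to 0.49% in TH. Levels are given as CPM (counts scaled to a common library size of 1 M) after TMM scaling over the 16 libraries. The 5 months SYN replicate 4 stood apart, with a summed level of 5 nuclear-retained RNAs of 6450 CPM against 1330 to 1940 CPM in the other 3 libraries of its group. The 19 months SYN replicate 1 stood apart in its mitochondrial share, 57.8% against 36.1 to 37%. Of 8 neuron markers, 4 were called higher and 2 lower in SYN than in TH at 5 months, while all 5 nuclear RNAs and all 8 endothelial markers were called lower. All 8 astrocyte and all 8 microglia markers were called higher in SYN, as were 5 of 8 oligodendrocyte markers. The summed astrocyte markers ran from 6580 to 7620 CPM in SYN and from 2870 to 3440 CPM in TH, and the summed microglia markers from 164 to 195 CPM and from 82.0 to 87.5 CPM.

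Summed over its nuclear genes, complex IV was the complex whose levels lay farthest above TH in synaptosomes. At 5 months the complex IV sums were 566, 544, 481 and 435 CPM in SYN and 268, 256, 262 and 257 CPM in TH. No SYN library came near the TH range, and the lowest of the 4 SYN sums belonged to replicate 4. The complex III sums were 323, 298, 288 and 269 CPM in SYN and 229, 239.6, 251 and 236 CPM in TH, again with no overlap. For complex I, the sums were 1080.0, 1046, 928 and 869 CPM in SYN and 815, 832, 860.4 and 840.0 CPM in TH, so that SYN replicate 4 lay just above the highest TH library. Complex V gave 840.4, 829, 805 and 768 CPM in SYN and 738, 756, 758 and 734 CPM in TH. Complex II, the only complex without a mitochondrially encoded subunit, gave 228, 218, 204 and 233 CPM in SYN and 186, 193, 208 and 205 CPM in TH, and here the groups overlapped.

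**Figure D1:**
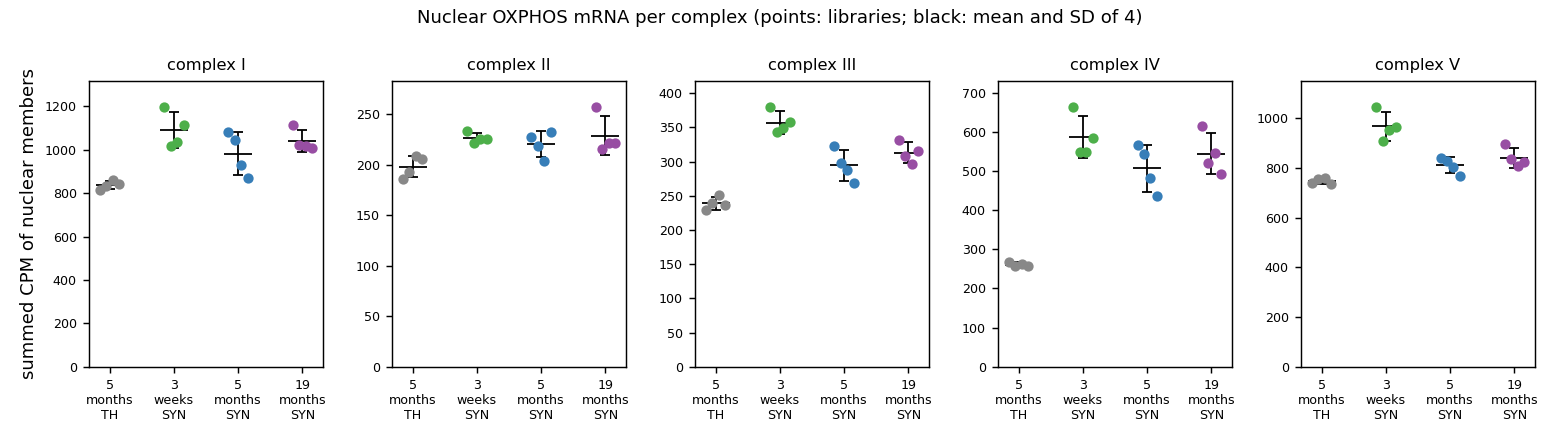
Summed level of the nuclear genes of each complex (y axis, CPM after TMM scaling) in each of the 16 libraries, by group (x axis); points are libraries, with the mean and SD of each group. Complex IV sums in TH sit between 256 and 268 CPM, below every SYN library, and the 3 weeks SYN libraries have the highest complex III and complex V means.

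Across ages, the complex sums were highest at 3 weeks for complexes I, III, IV and V. Complex III had a mean of 357 ± 16.2 CPM (SD, n = 4) at 3 weeks, 294 ± 22.6 CPM at 5 months and 313 ± 15.1 CPM at 19 months. Complex V had 968 ± 57.5 CPM, 810.4 ± 32.2 CPM and 840.3 ± 40.0 CPM at the same ages. For these complexes the lowest 3 weeks library lay above the highest library of either later age. Complex IV had 586 ± 53.8 CPM, 506 ± 59.9 CPM and 544 ± 52.7 CPM, and complex I had 1091 ± 81.5 CPM, 981 ± 98.9 CPM and 1042 ± 50.2 CPM, and their ranges overlapped between the ages. Complex II had 226 ± 5.16 CPM, 221 ± 12.6 CPM and 229 ± 19.1 CPM. These sums are a description and were not tested, since a few abundant genes dominate them.

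The 13 mRNAs of the mitochondrial genome differed more between the fractions than the nuclear genes did. All 13 were called higher in SYN than in TH, with log2 fold changes from 1.23 to 2.32 and a median of 1.65. The ratio of mitochondrial to nuclear summed CPM for complex I was 29.7, 21.4, 21.9 and 22.1 in SYN and 9.61, 9.44, 9.39 and 11.6 in TH at 5 months. For complex IV it was 38.4, 28.7, 29.7 and 32.2 in SYN and 19.8, 20.6, 19.3 and 24.5 in TH. Neither ratio overlapped between the fractions.

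Level per kilobase of the principal transcript allows the genes to be compared with each other. In TH at 5 months, Atp5b, the catalytic beta subunit of ATP synthase, stood first at 158 CPM per kb. It was followed by Cox4i1 at 111, Atp5a1, the alpha subunit, at 94.5, Atp5j at 87.3, Ndufb9 at 68.8 and Cox8a at 62.0 CPM per kb. In SYN at 5 months the order changed to Cox4i1 at 254.5, Cox8a at 186, Ndufb9 at 163, Atp5b at 161, Uqcrh at 111 and Atp5a1 at 110.1 CPM per kb. Cox4i1, the large regulatory subunit of cytochrome c oxidase, and Cox8a, one of its smallest subunits, held the first 2 places in the 3 SYN ages.

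SYN and TH were compared at 5 months to find transcripts enriched in or depleted from synaptosomes. Of the 84 genes, 80 passed the filter on low counts (Cox7b2, Cox8b, Cox8c and Atp5g2 did not), and edgeR called 30 higher and 6 lower in SYN at an adjusted p under 0.05. Among all 17374 genes tested, 50.1% were called, 24.5% higher and 25.6% lower, so the share of members called, 45.0%, was not above that of all genes. Most of the called members were higher. The median log2 fold change of the 80 was 0.176, against -0.0495 over all genes and 0.022 over protein-coding genes. Upper-quartile scaling, which moved the median of all genes to -0.191, gave 21 members higher and 12 lower with a median of 0.0327. DESeq2 size factors gave 25 higher and 7 lower, and leaving out 5 months SYN replicate 4 gave 28 higher and 6 lower. In 28 members the 4 SYN and 4 TH levels did not overlap, against 47.9% of all genes tested.

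**Figure D2:**
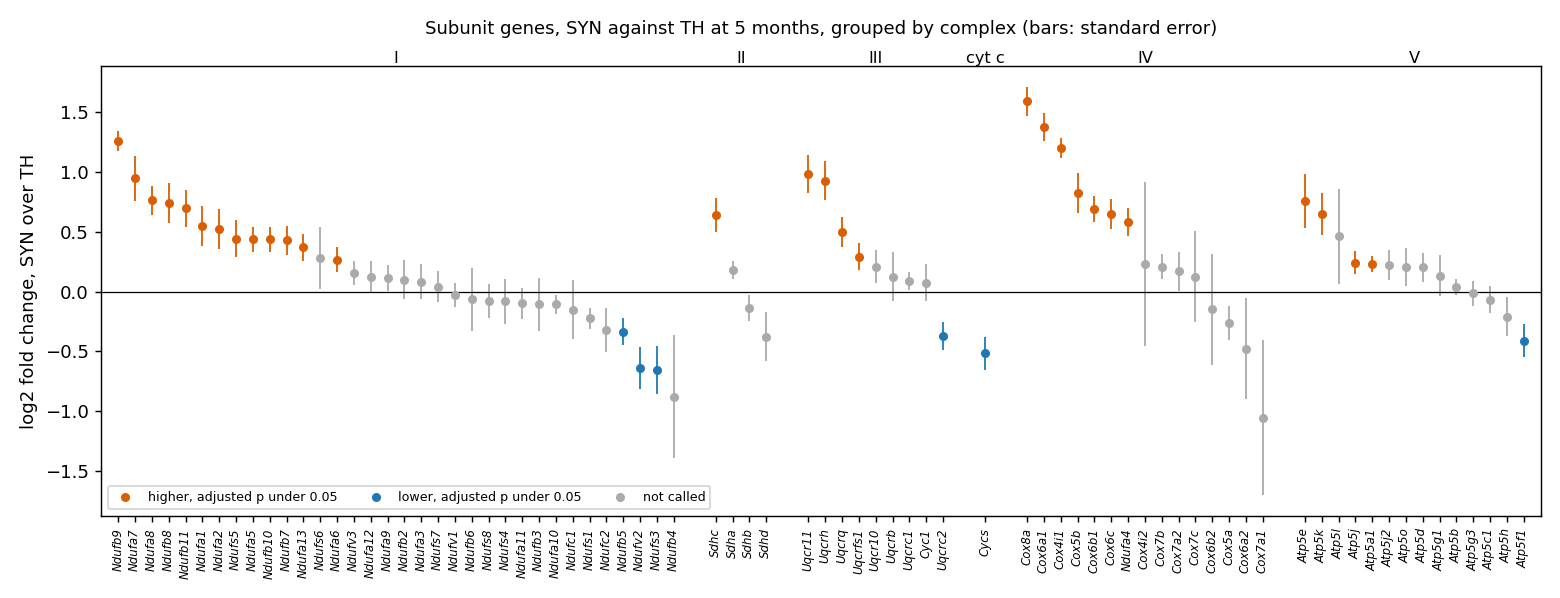
Log2 fold change of SYN against TH at 5 months (y axis, edgeR, positive where SYN is higher) for the tested subunit genes but 1, grouped by complex (x axis); points are genes with their standard error, orange where called higher, blue where called lower and grey where not called at an adjusted p under 0.05. The ubiquitous complex IV genes Cox8a, Cox6a1 and Cox4i1 and the complex I gene Ndufb9 lie above a log2 fold change of 1, and complex I has called genes on both sides of 0.

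Of complex IV, 15 of 18 genes were tested, 7 were called higher and 0 lower in SYN, and the median log2 fold change was 0.228. That median was the value of Cox4i2, which had only 19, 1, 5 and 11 counts in SYN and 18, 13, 10 and 14 in TH. Across 14 alternatives the Cox4i2 value ran from -0.509 to 0.595, so the complex IV median depends on a gene with few counts. Upper-quartile scaling gave 7 higher, 1 lower and a median of 0.0857, and the median was 0.589 without SYN replicate 2 and 0.587 without TH replicate 1. All 7 were among the 11 forms found in most tissues, whose median was 0.65, while the 4 tested genes of the muscle-type, testis-type or lung-type forms had a median of -0.312 and no call. Cox8a (chromosome 19, 7215158 to 7217616, minus strand, GRCm38) had levels of 118, 116, 95.5 and 79.2 CPM in SYN and 36.0, 37.7, 33.1 and 29.6 CPM in TH. Its lowest SYN level was still far above every TH level, and the log2 fold change was 1.59 (SE 0.123, edgeR adjusted p = 1.28e-07). Cox6a1 (chromosome 5, 115345642 to 115348981, minus strand), a nuclear subunit at the dimer interface, had 50.5, 58.5, 49.8 and 39.6 CPM in SYN and 17.1, 21.3, 19.7 and 18.5 CPM in TH, also without overlap, with a log2 fold change of 1.38 (SE 0.118, edgeR adjusted p = 2.5e-07). Cox4i1 (chromosome 8, 120668222 to 120674207, plus strand) had 225, 199, 185 and 169 CPM in SYN and 90.1, 80.3, 84.3 and 86.1 CPM in TH. Every SYN library thus held more Cox4i1 than any TH library, and the log2 fold change was 1.20 (SE 0.0869, edgeR adjusted p = 4.17e-08).

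The other 4 complex IV calls were smaller. Cox5b, which binds zinc on the matrix side, was higher by a log2 fold change of 0.82 (edgeR adjusted p = 0.000813), and Cox6b1, which faces the intermembrane space, by 0.69 (edgeR adjusted p = 8.92e-05). Cox6c was higher by 0.65 (edgeR adjusted p = 0.000592). Ndufa4, named for complex I but known as a complex IV subunit, had 25.3, 21.99, 21.0 and 20.9 CPM in SYN and 16.6, 15.95, 14.2 and 13.4 CPM in TH, with a log2 fold change of 0.58 (SE 0.12, edgeR adjusted p = 0.000953). In none of these 4 genes did the SYN and TH levels overlap. The remaining ubiquitous forms were not called, with log2 fold changes of -0.26 for Cox5a, 0.13 for Cox7c, 0.17 for Cox7a2 and 0.21 for Cox7b.

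Complex I had calls in both directions, 14 higher and 3 lower of 35 tested, with a median log2 fold change of 0.114. Upper-quartile scaling gave 8 higher and 6 lower with a median of -0.0276. Its 7 core subunits, which carry the redox centres and have bacterial counterparts, gave 1 higher and 2 lower, with a median of -0.079. The 28 accessory subunits gave 13 higher and 1 lower, with a median of 0.212. The difference between core and accessory subunits was not tested.

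Ndufb9 (chromosome 15, 58933810 to 58939489, plus strand), an accessory subunit of the membrane arm, stood apart from the rest of complex I. Its levels were 129.6, 120.2, 109.6 and 101 CPM in SYN and 48.6, 48.0, 50.6 and 46.5 CPM in TH. The SYN levels all exceeded the TH levels by more than the spread of either group, with a log2 fold change of 1.26 (SE 0.0856, edgeR adjusted p = 2.3e-08). Ndufa7, an accessory subunit of the peripheral arm, had 12.9, 12.5, 13.5 and 13.3 CPM in SYN and 9.55, 6.12, 6.80 and 4.95 CPM in TH, a log2 fold change of 0.95 (SE 0.187, edgeR adjusted p = 0.000675). Ndufa8, on the intermembrane space side, had 34.5, 33.8, 31.2 and 26.5 CPM in SYN and 19.8, 18.4, 20.9 and 15.7 CPM in TH, a log2 fold change of 0.76 (SE 0.121, edgeR adjusted p = 0.000108). Neither gene's groups overlapped.

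The 3 complex I genes called lower were Ndufv2, Ndufs3 and Ndufb5. Ndufv2 (chromosome 17, 66078795 to 66101559, minus strand), a core subunit that carries an iron-sulfur cluster, had 40.2, 42.0, 32.6 and 29.3 CPM in SYN and 46.8, 43.0, 60.6 and 75.7 CPM in TH. The groups did not overlap, although SYN replicate 2 and TH replicate 2 lay within about 1 CPM of each other, and the log2 fold change was -0.64 (SE 0.177, edgeR adjusted p = 0.0104). With the replicate number as a block it was -0.619 and not called (edgeR adjusted p = 0.079). Ndufs3, a core subunit of the arm that reaches into the matrix, had 4.55, 6.96, 4.32 and 5.80 CPM in SYN and 10.4, 7.74, 9.06 and 7.24 CPM in TH, a log2 fold change of -0.65 (SE 0.201, edgeR adjusted p = 0.0138). Without TH replicate 1 the Ndufs3 value was -0.551 (edgeR adjusted p = 0.0553), no longer a call. Ndufb5 was lower by a log2 fold change of -0.34 (edgeR adjusted p = 0.0228), a call that was lost when SYN replicate 4, TH replicate 3 or TH replicate 4 was left out (adjusted p from 0.0506 to 0.0606).

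Complex II had 1 call among its 4 genes. Sdhc, a membrane anchor that helps bind ubiquinone, had 28.5, 22.2, 19.3 and 27.6 CPM in SYN and 15.8, 18.3, 13.5 and 15.5 CPM in TH. The lowest SYN library lay about 1 CPM above the highest TH library, and the log2 fold change was 0.64 (SE 0.143, edgeR adjusted p = 0.00166). Sdha, the flavoprotein that oxidises succinate, was the most abundant of the 4, with 173, 166, 154 and 178 CPM in SYN and 140.4, 142, 159.7 and 155 CPM in TH, and was not called (log2 fold change 0.18, edgeR adjusted p = 0.06). The iron-sulfur subunit Sdhb and the other anchor Sdhd were not called either, with log2 fold changes of -0.14 and -0.38. Under upper-quartile scaling both were called lower, at -0.278 and -0.521 (edgeR adjusted p = 0.0429 and 0.0461). The median of the 4 genes, 0.0215, became -0.12 under upper-quartile scaling and -0.0358 with DESeq2 size factors.

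In complex III, 4 of 9 genes were called higher and 1 lower in SYN, with a median log2 fold change of 0.209 (0.0676 under upper-quartile scaling). Uqcr11 (chromosome 10, 80402997 to 80406830, minus strand), the smallest subunit, had 23.4, 24.0, 17.0 and 17.0 CPM in SYN and 9.23, 8.57, 12.2 and 11.4 CPM in TH. The groups were well apart, with a log2 fold change of 0.98 (SE 0.161, edgeR adjusted p = 0.000137). Uqcrh, the hinge protein between cytochrome c1 and cytochrome c, had 73.9, 68.1, 53.8 and 46.5 CPM in SYN and 37.0, 33.9, 33.6 and 23.8 CPM in TH, a log2 fold change of 0.93 (SE 0.162, edgeR adjusted p = 0.000487). Uqcrq, a small subunit that binds ubiquinone, was higher by 0.50 (edgeR adjusted p = 0.00415), with 1 SYN library inside the TH range, and Uqcrfs1, the Rieske iron-sulfur protein, was higher by 0.29 (edgeR adjusted p = 0.043). The core protein Uqcrc2 was lower, with 33.2, 24.1, 24.4 and 26.9 CPM in SYN and 31.0, 36.9, 35.6 and 38.2 CPM in TH, a log2 fold change of -0.37 (SE 0.116, edgeR adjusted p = 0.0146). Cyc1, the cytochrome c1 gene, was not called, at 0.08 (edgeR adjusted p = 0.719).

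Cycs, the somatic cytochrome c that carries electrons from complex III to complex IV, had 10.3, 11.9, 12.5 and 11.7 CPM in SYN and 16.7, 19.6, 15.8 and 14.6 CPM in TH. All 4 SYN levels lay below all 4 TH levels, and the log2 fold change was -0.52 (SE 0.136, edgeR adjusted p = 0.00542).

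Of complex V, 14 of 15 genes were tested, 4 were called higher and 1 lower, and the median log2 fold change was 0.204 (0.061 under upper-quartile scaling). Atp5e, the epsilon subunit of the F1 head, had 6.20, 8.82, 5.30 and 6.93 CPM in SYN and 4.53, 4.17, 4.57 and 2.99 CPM in TH, a log2 fold change of 0.76 (SE 0.224, edgeR adjusted p = 0.0106). Atp5k, subunit e of the membrane part, had 14.1, 14.0, 13.9 and 11.5 CPM in SYN and 8.30, 9.79, 10.2 and 5.97 CPM in TH, a log2 fold change of 0.65 (SE 0.176, edgeR adjusted p = 0.00632). Neither pair of groups overlapped. The abundant Atp5a1 had 274, 272, 289.9 and 252 CPM in SYN and 230.5, 232, 237 and 236 CPM in TH, a small difference of 0.23 (SE 0.068, edgeR adjusted p = 0.0107) that was 0.0888 and not called under upper-quartile scaling (edgeR adjusted p = 0.281). The other call in that direction was Atp5j, coupling factor 6 of the peripheral stalk, at 0.24 (edgeR adjusted p = 0.0433). Atp5f1, the b subunit of the same stalk, was lower at -0.41 (edgeR adjusted p = 0.0209), a call lost without SYN replicate 3, TH replicate 2 or TH replicate 3 (adjusted p from 0.0514 to 0.0696). Atp5b was not called, at 0.04 (edgeR adjusted p = 0.688).

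**Figure D3:**
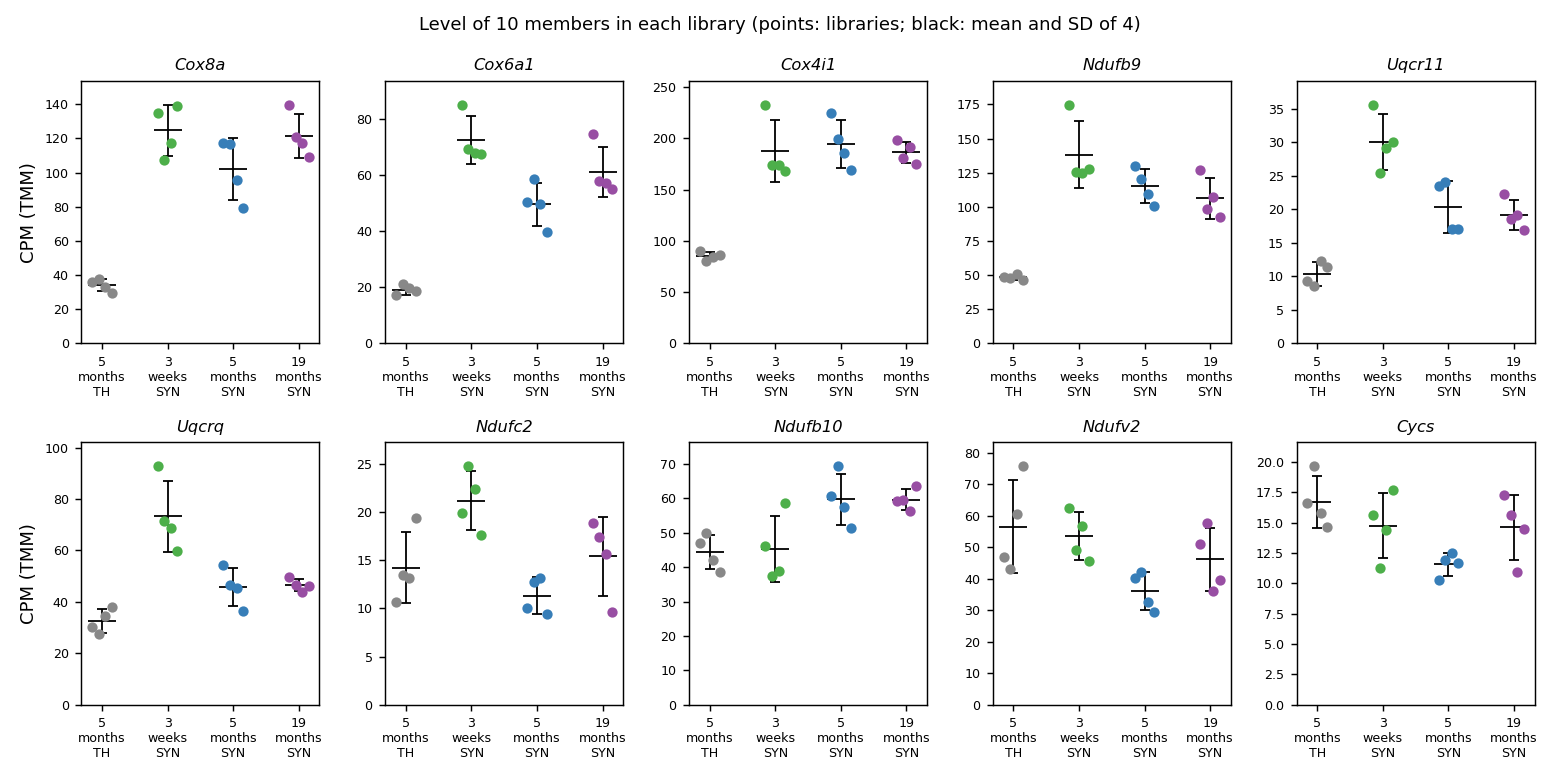
Level of 10 members (y axis, CPM after TMM scaling, each panel with its own scale) in the 4 libraries of each group (x axis); points are libraries, with the mean and SD of each group. Cox8a, Cox6a1, Cox4i1, Ndufb9 and Uqcr11 have every SYN library above every TH library, Cycs and Ndufv2 lie lower in 5 months SYN than in TH, and Uqcrq and Ndufc2 have their highest mean at 3 weeks.

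The glial markers, the endothelial markers and the nuclear RNAs moved between the same SYN and TH libraries as these genes. The summed endothelial markers ran from 11 to 34.1 CPM in SYN and from 113 to 175 CPM in TH, and the nuclear RNAs from 1330 to 6450 CPM and from 19800 to 23900 CPM. None of the 8 endothelial and none of the 5 nuclear RNAs was at 0 in any of the 4 groups. Their part in the differences of the members was not tested.

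The members called higher were mostly short, and so were most of the members tested. Of the 46 tested members whose principal transcript is under 1 kb, 24 were called higher and 0 lower in SYN, with a median log2 fold change of 0.356. Among all protein-coding genes under 1 kb the median was 0.0521, and 22.8% were called higher and 12.3% lower. The 25 members of 1 to 2 kb gave 4 higher and 5 lower, with a median of -0.0259. Protein-coding genes of 1 to 2 kb gave 18.2% higher and 18.1% lower. Across the 80 tested members, the fold change had a Spearman correlation of -0.365 and a Pearson correlation of -0.305 with log2 transcript length. Over 13667 protein-coding genes the same correlations were 0.0791 and 0.0705. These correlations are across genes, which share the same libraries and are not independent replicates, and describe the values only.

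**Figure D4:**
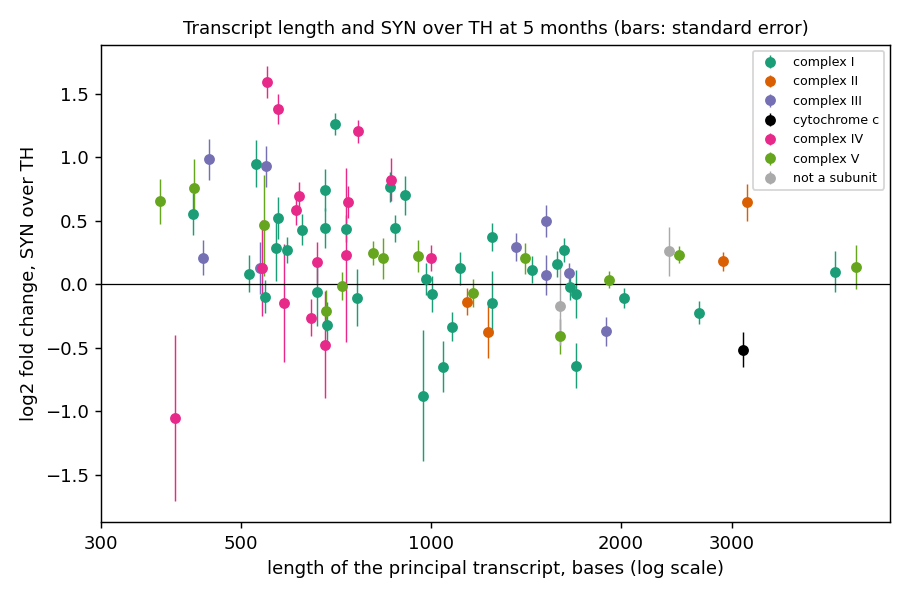
Log2 fold change of SYN against TH at 5 months (y axis) against the length of the principal transcript in bases (x axis, log scale) for the 80 tested members; points are genes coloured by complex, with their standard error. Of the 30 members called higher, 24 lie under 1 kb, where 0 were called lower, and 5 of the 6 members called lower lie between 1 and 2 kb.

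Sequence shared with other genes can lower the count of a gene where read pairs that align to several places are left out. Of the 84 members, 11 share at least 25% of the 50-base stretches of their transcript with other genes, namely Atp5g2, Atp5l, Cox7c, Atp5h, Uqcrb, Ndufb4, Ndufs3, Ndufs5, Cycs, Ndufa12 and Cox5b. The share was highest in Atp5g2, at 87.4%, and was 35.8% in Ndufs3, 31.1% in Ndufs5, 28.5% in Cycs and 25.9% in Cox5b. The median level of the 11 in TH was 8.22 CPM per kb, against 20.8 for the 24 members with a smaller share and 19.3 for the 49 with none, and their own levels are uncertain. In 16 members an exon of a neighbouring gene overlaps more than 10% of the principal transcript. Cox4i1 overlaps a gene on the other strand over 20.1% of its length, Ndufb5 over 20.0%, Uqcrc2 over 26.6% and Atp5f1 over 21.0%, and Ndufb9 overlaps a gene on its own strand over 28.6%. The strand setting of the counting is not given in the sources used here, so the counts of these genes may include or lack reads of the overlap.

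Synaptosomes of 5 months were compared with those of 3 weeks to follow the change from young to adult cortex, with the same 5 months SYN libraries as above. Here 79 members were tested, and edgeR called 4 higher and 22 lower at 5 months, 32.9% of the members against 24.6% of all 15344 genes tested. Over all genes 13.3% were called higher and 11.3% lower. The median log2 fold change of the members was -0.228, against 9.69e-05 over all genes, and 20 members had no overlap between the ages, against 22.7% of all genes. The number called higher went down to 1 without 3 weeks replicate 3 and to 2 without 3 weeks replicate 2 or 5 months replicate 2. With both libraries that stand apart left out, 4 members were called higher and 19 lower with a median of -0.19.

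**Figure D5:**
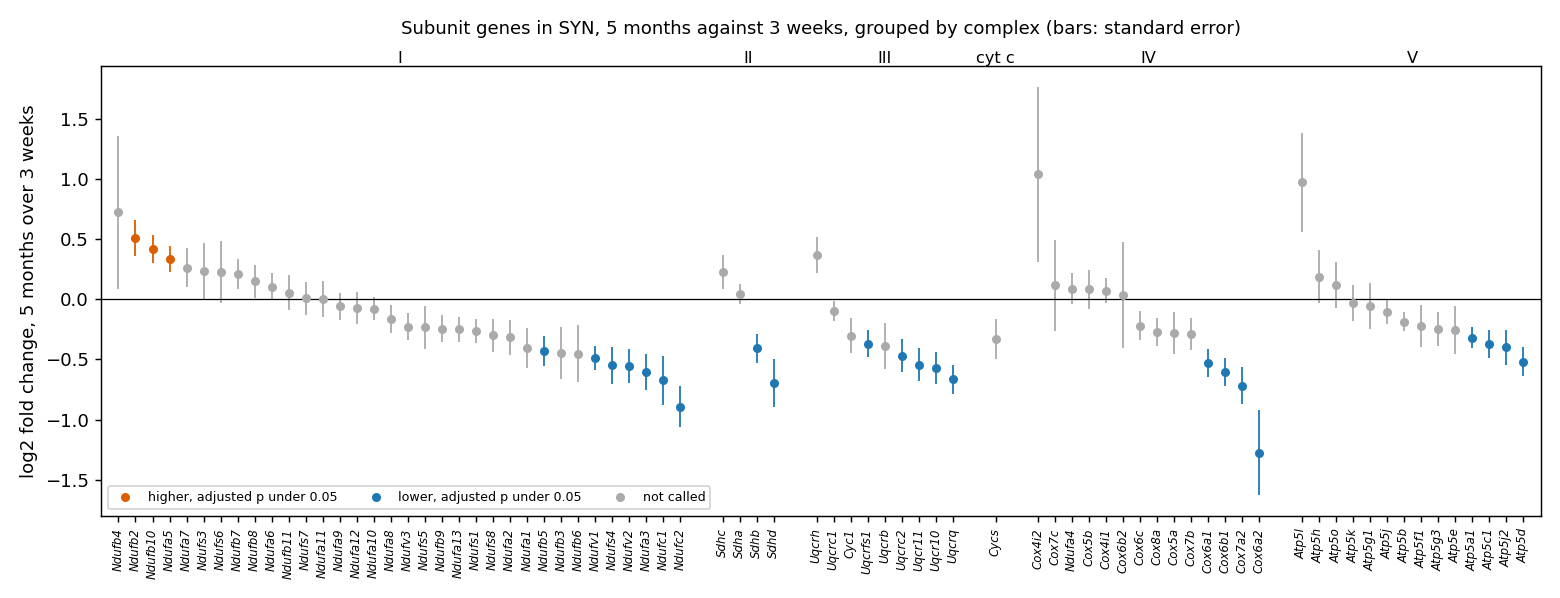
Log2 fold change of 5 months against 3 weeks SYN (y axis, edgeR, positive where 5 months is higher) for the tested subunit genes but 1, grouped by complex (x axis); points are genes with their standard error, orange where called higher, blue where called lower and grey where not called at an adjusted p under 0.05. Complexes II, III, IV and V have called genes below 0 only, while complex I has 3 called genes above 0 and 7 below.

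Complex III had the lowest median of the complexes, -0.39, with 5 of 9 genes lower and 0 higher. Uqcrq had 92.7, 71.6, 68.7 and 60.0 CPM at 3 weeks and 54.5, 46.6, 45.4 and 36.3 CPM at 5 months, and fell by 0.67 on the log2 scale (SE 0.121, edgeR adjusted p = 0.000195) with no overlap between the ages. Uqcr10, another small subunit, had 20.8, 19.7, 22.7 and 24.2 CPM at 3 weeks and 13.2, 14.4, 15.1 and 15.3 CPM at 5 months, and fell by 0.57 (SE 0.131, edgeR adjusted p = 0.00194). Uqcr11 had 35.6, 25.4, 29.1 and 29.99 CPM at 3 weeks against the 5 months levels given above, and fell by 0.54 (SE 0.138, edgeR adjusted p = 0.00474). None of the 3 overlapped. Uqcrc2 fell by 0.47 (edgeR adjusted p = 0.0113) and Uqcrfs1 by 0.37 (edgeR adjusted p = 0.0176), and the Uqcrc2 call was lost without 3 weeks replicate 3. Uqcrh had 46.9, 36.3, 43.1 and 63.6 CPM at 3 weeks and was not called, with a positive log2 fold change of 0.37 (edgeR adjusted p = 0.0769). Cycs had 15.7, 11.2, 14.4 and 17.7 CPM at 3 weeks, with replicate 2 inside the 5 months range, and was not called (log2 fold change -0.33, edgeR adjusted p = 0.143).

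In complex I, 7 genes fell and 3 rose, with a median of -0.164. Ndufc2 (chromosome 7, 97400003 to 97407802, plus strand), an accessory subunit of the membrane arm, had 19.9, 24.8, 22.5 and 17.7 CPM at 3 weeks and 10.0, 12.7, 13.2 and 9.38 CPM at 5 months. The ages did not overlap, and the gene fell by 0.89 on the log2 scale (SE 0.174, edgeR adjusted p = 0.000416). Ndufv1, the core subunit that binds NADH and flavin, had 47.4, 46.1, 49.4 and 43.3 CPM at 3 weeks and 35.0, 32.8, 34.5 and 29.0 CPM at 5 months, and fell by 0.49 (SE 0.101, edgeR adjusted p = 0.000722). Its partner Ndufv2 had 62.5, 49.2, 56.6 and 45.5 CPM at 3 weeks, all above the 5 months levels given above, and fell by 0.55 (SE 0.139, edgeR adjusted p = 0.00485). Ndufa3 fell by 0.61 (edgeR adjusted p = 0.0039), and Ndufs4, Ndufc1 and Ndufb5 fell by 0.55, 0.67 and 0.43. The Ndufb5 call was lost without 5 months replicate 4.

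The 3 complex I genes that rose were Ndufb10, Ndufb2 and Ndufa5, all accessory subunits. Ndufb2 had 9.46, 8.76, 8.97 and 9.85 CPM at 3 weeks and 14.8, 10.9, 13.2 and 13.3 CPM at 5 months, with no overlap, and a log2 fold change of 0.51 (SE 0.15, edgeR adjusted p = 0.0134). Ndufb10 had 46.0, 37.5, 38.8 and 58.6 CPM at 3 weeks and 60.7, 69.3, 57.3 and 51.5 CPM at 5 months, so that the 3 weeks replicate 4 lay inside the later range, and a log2 fold change of 0.42 (SE 0.119, edgeR adjusted p = 0.0106). Ndufa5 had 54.4, 41.5, 41.6 and 49.98 CPM at 3 weeks and 65.8, 65.2, 48.4 and 54.3 CPM at 5 months, a log2 fold change of 0.34 (SE 0.11, edgeR adjusted p = 0.0257). The Ndufb10 call was lost when any of 3 libraries was left out (3 weeks replicate 2 or 3, 5 months replicate 2). The Ndufa5 call was lost when any of 4 was left out, those 3 or 5 months replicate 1, with an adjusted p from 0.0928 to 0.11. Atp5sl, a name match known as a complex I assembly factor, was also called higher (log2 fold change 0.60, edgeR adjusted p = 0.027), a call that was lost without 3 weeks replicate 3 or 4 or 5 months replicate 3 or 4.

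In complex II, Sdhb and Sdhd fell. Sdhb had 25.9, 29.5, 27.5 and 29.1 CPM at 3 weeks and 19.2, 19.9, 22.7 and 21.5 CPM at 5 months, without overlap, and fell by 0.41 (SE 0.12, edgeR adjusted p = 0.0134). Sdhd had 13.9, 14.4, 13.9 and 8.59 CPM at 3 weeks and 6.91, 9.87, 8.40 and 5.86 CPM at 5 months, and fell by 0.70 (SE 0.199, edgeR adjusted p = 0.0109), with 3 weeks replicate 4 inside the later range. Sdha, at 169, 159.6, 164 and 166 CPM at 3 weeks, was not called (log2 fold change 0.04, edgeR adjusted p = 0.753), and Sdhc was not called at 0.23.

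In complex IV, 4 of 14 tested genes fell and 0 rose, with a median of -0.247. Cox6b1 had 56.7, 54.6, 56.7 and 51.9 CPM at 3 weeks and 37.8, 39.4, 35.8 and 30.2 CPM at 5 months, and fell by 0.60 (SE 0.114, edgeR adjusted p = 0.000282). Cox7a2, the common form of a small subunit, had 20.4, 24.8, 19.1 and 17.5 CPM at 3 weeks and 10.7, 14.8, 11.7 and 11.9 CPM at 5 months, and fell by 0.72 (SE 0.155, edgeR adjusted p = 0.0011). Cox6a1 had 85.1, 69.4, 68.0 and 67.6 CPM at 3 weeks and fell by 0.53 to the 5 months levels given above (SE 0.116, edgeR adjusted p = 0.00119). None of these 3 overlapped between the ages. Cox6a2, the heart and muscle form, was low throughout, at 3.18, 3.60, 2.84 and 3.80 CPM at 3 weeks and 1.73, 0.449, 1.39 and 1.85 CPM at 5 months, and fell by 1.28 (SE 0.354, edgeR adjusted p = 0.00916). Cox4i1 was not called, at 0.07, nor was Cox8a, at -0.27 (edgeR adjusted p = 0.662 and 0.0795).

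In complex V, 4 of 14 tested genes fell and 0 rose, with a median of -0.204, and 3 of the 4 belong to the F1 head. Atp5d, the delta subunit, had 38.5, 39.4, 43.6 and 39.0 CPM at 3 weeks and 30.8, 30.7, 28.1 and 21.4 CPM at 5 months, and fell by 0.52 (SE 0.119, edgeR adjusted p = 0.00194). Atp5a1 had 391, 322, 349 and 314 CPM at 3 weeks, all above the 5 months levels, and fell by 0.32 (SE 0.0877, edgeR adjusted p = 0.00804). Atp5c1, the gamma subunit of the rotating shaft, fell by 0.37 (edgeR adjusted p = 0.0188), a call lost without 3 weeks replicate 2 or 5 months replicate 3 or 4. Atp5j2, subunit f of the membrane part, fell by 0.40 at an adjusted p of 0.0445 by edgeR, and 10 of the alternatives moved it past the threshold. Atp5b was not called, at -0.19 (edgeR adjusted p = 0.098).

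Oligodendrocyte markers and nuclear RNAs moved between these ages as well. All 8 oligodendrocyte markers were called lower at 5 months, and their sums ran from 7210 to 10100 CPM at 3 weeks and from 2230 to 2770 CPM at 5 months, with none at 0. Of the 5 nuclear RNAs, 3 were called higher, and their sums ran from 609 to 892 CPM and from 1330 to 6450 CPM. Of 8 microglia markers, 3 were called higher (sums of 119 to 183 CPM and 164 to 195 CPM), and of 6 meninges markers 3 were called lower (127 to 197 CPM and 57.8 to 106 CPM). Endothelial and mural markers gave 3 higher of 6 tested each. Their part in the members' changes was not tested.

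Synaptosomes of 19 months were compared with those of 5 months for change in later life, and edgeR called 0 of the 79 tested members. Over all genes 0.300% were called, so few calls were made anywhere. At an unadjusted p under 0.05 there were 12 members and 2103 genes in all, 13.7% of those tested. DESeq2 called 3 members, all higher at 19 months. Cox7a2 had 20.6, 15.9, 22.8 and 15.3 CPM at 19 months, all above the 5 months levels, with a log2 fold change of 0.59 (adjusted p = 0.0841 by edgeR and 0.0238 by DESeq2). Ndufa3 had 24.0, 15.2, 23.7 and 22.5 CPM at 19 months, with replicate 2 inside the 5 months range, and a log2 fold change of 0.56 (adjusted p = 0.0855 by edgeR and 0.0297 by DESeq2). Ndufa12, an accessory subunit of the peripheral arm, had 41.8, 27.2, 35.9 and 34.6 CPM at 19 months and 25.8, 28.3, 23.2 and 21.5 CPM at 5 months, with a log2 fold change of 0.49 (adjusted p = 0.0855 by edgeR and 0.0363 by DESeq2). The median over the members was 0.0801, and 4 members had no overlap between the ages, against 8.06% of all genes.

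Against 3 weeks, synaptosomes of 19 months had 4 members called higher and 10 lower of 79, where edgeR called 19.4% of all genes, 10.0% higher and 9.44% lower. This comparison and the one of 5 months with 3 weeks share the 3 weeks libraries, so their values stand side by side and are not independent. The median log2 fold change was -0.112, against 0.00273 over all genes, and 16 members had no overlap, against 22.9% of all genes. With both libraries that stand apart left out there were 4 higher and 12 lower. The number of members called lower went down to 6 without 19 months replicate 4, and the number called higher to 1 without that library or without 3 weeks replicate 3 and to 2 without 3 weeks replicate 2.

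In complex III, 2 genes were lower and 1 higher at 19 months, with a median of -0.346. Uqcrq had 49.5, 46.5, 43.7 and 46.0 CPM at 19 months, below every 3 weeks library, a log2 fold change of -0.65 (SE 0.121, edgeR adjusted p = 0.000307) beside -0.67 at 5 months. Uqcr11 had 22.2, 18.5, 19.1 and 16.9 CPM at 19 months, a log2 fold change of -0.64 (SE 0.14, edgeR adjusted p = 0.00154) beside -0.54. Uqcrh was higher, with 69.6, 61.3, 67.3 and 75.7 CPM at 19 months, a log2 fold change of 0.53 (SE 0.149, edgeR adjusted p = 0.0142). Its 3 weeks replicate 4, at 63.6 CPM, lay inside the 19 months range, and the call was lost without 3 weeks replicate 1 or 3 or 19 months replicate 4.

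Complex I gave 3 higher and 4 lower genes, with a median of -0.0677. Ndufa5 had 65.5, 59.2, 58.9 and 65.8 CPM at 19 months, above every 3 weeks library, a log2 fold change of 0.42 (SE 0.11, edgeR adjusted p = 0.00741). Ndufb10 was higher by 0.41 (edgeR adjusted p = 0.0157), a call lost without 3 weeks replicate 2 or 3 or 19 months replicate 4, and Ndufa12 by 0.42 (edgeR adjusted p = 0.0262), a call lost under 6 of the alternatives. Ndufv1 had 38.6, 34.5, 36.1 and 33.4 CPM at 19 months, below every 3 weeks library, a log2 fold change of -0.38 (SE 0.101, edgeR adjusted p = 0.0081). Ndufc1, Ndufs5 and Ndufb9 were lower by -0.61, -0.57 and -0.37 on the log2 scale, with Ndufb9 and Ndufs5 losing the call when single libraries were left out, among them 3 weeks replicate 1 for both.

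Complex IV had 1 call, complex V had 3, and all were lower. Cox6b1 had 49.0, 35.5, 45.4 and 34.6 CPM at 19 months, a log2 fold change of -0.42 (SE 0.114, edgeR adjusted p = 0.00982), and the call was lost without 19 months replicate 2 or 4. Atp5a1 had 285, 249, 262 and 266 CPM at 19 months, below every 3 weeks library, a log2 fold change of -0.37 (SE 0.0878, edgeR adjusted p = 0.00343). Atp5j2 was lower by -0.58 (SE 0.147, edgeR adjusted p = 0.00571). Atp5d was lower by -0.41 (edgeR adjusted p = 0.0159), a call lost without 3 weeks replicate 3 or 19 months replicate 3 or 4. Complex II had no call. All 8 oligodendrocyte markers were called lower at 19 months than at 3 weeks too, with sums from 2230 to 3120 CPM at 19 months. Microglia markers gave 4 higher of 8, meninges markers 3 lower of 6 and mural markers 1 higher of 6 tested. Neuron markers gave 2 higher and 1 lower of 8, and astrocyte markers 1 higher and 2 lower of 8. Their part in the members' changes was not tested.

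The other genes of mitochondrial energy metabolism did not all follow the subunits between SYN and TH. Their counts stand beside 24.5% of all genes called higher and 25.6% called lower in SYN. Of 14 complex I assembly factors tested, 1 was called higher and 6 lower in SYN, with a median log2 fold change of -0.434. Ndufaf6 was the lowest at -1.57 (edgeR adjusted p = 0.000349), and Ndufaf7, a methyltransferase, was at -0.85 (edgeR adjusted p = 0.00124). Of 20 complex IV assembly factors, 2 were higher, led by Coa5 at 0.75 (edgeR adjusted p = 6.68e-05), and 4 lower, among them Lrpprc, which binds mitochondrial mRNAs, at -0.64 (edgeR adjusted p = 3.81e-05). Complex III assembly factors gave 2 higher of 6, Uqcc2 at 0.71 and Uqcc1 at 0.39. Complex II assembly factors gave 1 higher of 4, and those of complex V gave 0 of 3. Mitochondrial carriers and porins gave 0 higher and 5 lower of 11, among them Mpc1, a part of the pyruvate carrier, at -1.83 (edgeR adjusted p = 3.46e-05) and the aspartate-glutamate carrier Slc25a12 at -0.37. Of 12 regulators of mitochondrial biogenesis, 2 were higher, with Yy1 at 0.41, and 3 lower, with Nrf1 at -0.66 and Gabpb1 at -0.99. Neither count was above the share of all genes.

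Enzymes of the tricarboxylic acid cycle, which supplies NADH and succinate, gave 3 higher and 4 lower of 16 in SYN. Idh3a, a subunit of isocitrate dehydrogenase, was at -0.37 (edgeR adjusted p = 0.00166). Over all genes, 13.3% were called higher and 11.3% lower from 3 weeks to 5 months. From 3 weeks to 19 months these shares were 10.0% and 9.44%. From 3 weeks to 5 months, 10 of the 16 fell and 0 rose, with Mdh2, malate dehydrogenase, at -0.62 (edgeR adjusted p = 1.1e-05) and Ogdh at -0.43 (edgeR adjusted p = 0.00053), and from 3 weeks to 19 months 11 fell and 0 rose. Carriers and porins gave 6 lower of 11 at 5 months, with the glutamate carrier Slc25a22 at -0.86 and the porin Vdac1 at -0.63, and 4 lower at 19 months. Complex IV assembly factors had no call between any ages, with 0 of 20 in each comparison by edgeR. Complex III assembly factors gave 2 higher and 1 lower at 5 months and 3 higher at 19 months against 3 weeks, with Uqcc1 at 0.55 and 0.56.

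Several subunits exist as paralogous forms, one of which is common to most tissues and another typical of muscle, lung or testis. In all groups the common form dominated. For these shares, levels were divided by the exon length given with the counts, not by the length of the principal transcript. On this scale per kb, the share of Cox6a2 in the sum of Cox6a1 and Cox6a2 was 3.41, 0.786, 2.80 and 4.6% in SYN and 11.1, 8.33, 8.99 and 9.25% in TH at 5 months, with no overlap. The difference of the means, 2.90 ± 1.60% and 9.42 ± 1.19% (SD, n = 4), had a two-sided exact permutation p of 0.0286, the smallest that 4 against 4 libraries can give, and 0.514 after Benjamini-Hochberg adjustment over 28 tests of 7 paralog groups in 4 comparisons. None of the 28 passed. The level of Cox6a2 itself was not called between SYN and TH (log2 fold change -0.48, edgeR adjusted p = 0.374), while Cox6a1 was higher in SYN. Cox7a1 made up 3.98 ± 4.20% of its pair in SYN and 9.89 ± 2.88% in TH (exact permutation p = 0.114, n = 4). The SYN shares were 1.03, 2.77, 1.93 and 10.2%, with only replicate 4, which stood apart, inside the TH range. Cox7a1 had few counts, 1, 4, 2 and 16 in SYN and 14, 27, 24 and 20 in TH. Its level was not called (log2 fold change -1.05, edgeR adjusted p = 0.196). Without SYN replicate 4, the highest of its group, Cox7a1 was called lower at -2.16 (edgeR adjusted p = 0.0101). That value rests on SYN libraries with 1, 4 and 2 counts. Cox4i2, the lung form, made up 0.637 ± 0.515% and 1.29 ± 0.547% (exact permutation p = 0.171, n = 4).

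The members that did not pass the filter between SYN and TH, Cox8b, Cox8c, Cox7b2 and Atp5g2, had few counts. Cox8c had 0 to 2 counts and Cox7b2 0 to 8 counts in a library. Cox8b had 0 to 7 counts apart from 75 in TH replicate 4, the library in which choroid plexus markers summed to 2710 CPM against 30.2 to 93.3 CPM in the other TH libraries. The part of that tissue in the Cox8b count was not tested.

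The c-ring of ATP synthase is encoded by 3 genes that yield the same mature protein. Only the 225 bases that code for the mature protein were compared, and there the 3 forms differ mostly at the last base of codons. The first 90 of these bases are shown to let the 3 forms be compared. These differences do not set Atp5g2 apart from its pseudogenes, since 87.4% of the 50-base stretches of its transcript recur in 2 of them, and its count is uncertain. Capitals in Atp5g1 and Atp5g2 mark bases that differ from Atp5g3, and capitals in Atp5g3 mark bases that differ from either of the others.
Atp5g1: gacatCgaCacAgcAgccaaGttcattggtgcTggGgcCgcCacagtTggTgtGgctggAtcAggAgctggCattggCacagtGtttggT
Atp5g2: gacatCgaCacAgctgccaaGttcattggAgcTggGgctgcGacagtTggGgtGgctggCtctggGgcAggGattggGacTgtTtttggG
Atp5g3: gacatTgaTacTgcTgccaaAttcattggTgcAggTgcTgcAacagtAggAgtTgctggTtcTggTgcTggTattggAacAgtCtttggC
Over the 225 bases, Atp5g1 differs from Atp5g3 at 45 positions and Atp5g2 at 48, and the longest runs identical to Atp5g3 are 11 and 8 bases. Atp5g3 was the main form, with 18.3, 17.8, 18.9 and 17.0 CPM in 5 months SYN and 17.6, 17.4, 19.3 and 18.9 CPM in TH, and was not called (log2 fold change -0.01, edgeR adjusted p = 0.923). Atp5g1 had 10.3, 9.12, 6.69 and 10.3 CPM in SYN and 9.55, 8.24, 7.99 and 7.83 CPM in TH, and was not called either (log2 fold change 0.13, edgeR adjusted p = 0.552). Atp5g2 was near 0 in both fractions, with 0 to 2 counts in SYN except for 16 counts in 19 months replicate 2, and 2 to 14 counts in TH. Low expression and the loss of reads shared with its pseudogenes cannot be told apart here, so the shares that follow are uncertain too. The shares per kb again used the exon length given with the counts. Atp5g1 and Atp5g2 together made up 18.4 ± 3.18% of the 3 forms in SYN and 18.8 ± 2.69% in TH at 5 months (exact permutation p = 0.914, n = 4). Per kb of principal transcript, Atp5g1, Atp5g2 and Atp5g3 had means of 1.93, 0.0279 and 24.9 CPM in 5 months SYN. In TH they had 1.78, 0.51 and 25.3 CPM, so the shares depend on the length used.

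Splicing of the members was read from the authors' deposited tables, which cover the SYN ages only. In the authors' deposited LeafCutter tables, 24 members had a tested intron cluster at 5 months against 3 weeks and 2 passed an adjusted p of 0.05, where 10.5% of all genes tested did. Uqcr11 passed with an adjusted p of 0.00241 in the authors' deposited table, and its intron at chr10:80402254-80402998 went from 16.8% of the cluster at 3 weeks to 23.2% at 5 months. Cox4i1 passed with an adjusted p of 0.00464 in the authors' deposited table, and its intron at chr8:120674208-120674959 went from 52.1% to 42.9%. Both introns begin or end within 2 bases of the 3′ end of the gene's annotated span and lie downstream of it. At 19 months against 5 months 0 of 24 members passed, where 1.12% of genes did. At 19 months against 3 weeks 1 of 25 passed, where 7.94% of genes did, and it was Uqcr11 again, with an adjusted p of 0.000433 in the authors' deposited table and an intron at chr10:80402254-80402996 that went from 41.5% to 47.0%. In the authors' deposited DIEGO tables, 2 of 65 members had a junction at a q-value under 0.05 at 5 months against 3 weeks (11.9% of genes), 0 of 64 at 19 months against 5 months (0% of genes) and 1 of 66 at 19 months against 3 weeks (5.85% of genes). The smallest member q-values in the authors' deposited tables were 0.0464 for Uqcr10 and 0.0489 for Uqcr11, and no junction carried the tables' own mark of significance. At a threshold of 0.01 none of the DIEGO values of the members passed. The tables give no value per library, so no error can be stated.

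Nuclear respiratory factor 1 (NRF1), ETS-family factors and YY1 are known to bind promoters of nuclear oxidative phosphorylation genes. RefSeq promoters on GRCm38.p6, from 250 bases before to 50 after each start, were found for 66 of the 84 members and were searched on both strands. The core of the NRF1 motif, searched as the letters shown in capitals below with any base at the place where the windows differ, was in 17 of the 66 (25.8%), against 5.2% of 27025 genes. The ETS core CCGGAAG was in 24.2% against 9.9%, the YY1 letters AANATGGCG in 15.2% against 2.8%, and TATAAA in 10.6% against 15.7%. The windows below, 30 bases each, are from members called in one of the comparisons, with the NRF1 letters in capitals. Ndufa6, Ndufa8 and Atp5c1, also called and holding the letters, are not shown. For them no match on the gene's own strand gave a window wholly before the start. Ndufa11, Ndufb4, Sdha and Atp5h, which were not called, and Atp5g2, which was not tested, also gave such windows and are not shown. Called members such as Cox8a, Cox6b1 and Ndufc2 had promoters without the letters. Whether the letters go with the calls was not tested. A match describes the letters only, and the series holds no binding data.
Atp5k, chr5:108434430-108434459, minus strand: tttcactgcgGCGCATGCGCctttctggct
Cox6a1, chr5:115349056-115349085, minus strand: cggataaagtGCGCAGGCGCtggagttcct
Cox6a1, chr5:115349101-115349130, minus strand: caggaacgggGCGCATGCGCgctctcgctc
Ndufa5, chr6:24527697-24527726, minus strand: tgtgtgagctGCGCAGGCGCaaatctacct
Ndufs5, chr4:123718265-123718294, minus strand: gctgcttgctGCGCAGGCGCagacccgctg
Sdhd, chr9:50603909-50603938, minus strand: tcgctggggtGCGCACGCGCggtggcagcg
The windows cover matches on the gene's own strand only. Among them, Cox6a1 holds the letters at 2 places, 117 and 162 bases before its start. Cox6a1 was called higher in SYN than in TH and lower at 5 months than at 3 weeks. Ndufa5 was called higher in SYN than in TH and higher at both later ages. Ndufs5 was called higher in SYN than in TH (log2 fold change 0.44, edgeR adjusted p = 0.0276), a call lost under 8 of 16 alternatives, among them DESeq2 size factors and upper-quartile scaling (adjusted p up to 0.123). It was lower at 19 months than at 3 weeks, as given above. Atp5k was called higher in SYN than in TH, and Sdhd was called lower at 5 months than at 3 weeks.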

How the data were processed

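The authors deposited integer counts of 48709 genes in 16 libraries. Per the submitters' processing notes, bcl2fastq 2.20.0.422, cutadapt 1.18, Trimmomatic 0.38, featureCounts of Subread and build GRCm38.p6 were used, while the sources used here name no aligner, strand setting or annotation. Per the file headers, the authors' LeafCutter tables give each intron cluster an adjusted p-value and each intron, by age, a usage fraction (printed here as percent). The authors' deposited DIEGO tables give each junction a q-value and a score of abundance change, which is not printed. Introns were taken from the tables without their flanking bases.

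The fits used edgeR 4.0.16 in R 4.3.3, with its filterByExpr filter, TMM scaling and robust quasi-likelihood F test. A call needs an adjusted p (Benjamini-Hochberg over all genes tested) under 0.05. The fit of SYN and TH held 8 libraries, and that of the ages held the 12 SYN libraries. DESeq2 1.42.0 was an alternative. Alternatives covered scaling, filters, removal of mitochondrial transcripts, a replicate block, the libraries fitted and each library left out. Leaving out both libraries that stand apart was chosen after the data were seen. The fit was tested on simulated data. Paralog shares were compared with exact permutation tests (Python 3.11.15, scipy 1.17.1, pandas 2.3.3, numpy 2.4.6), and figures drawn with matplotlib 3.10.9. Transcript lengths come from GENCODE vM21, where 83 of 84 members had the same identifier and symbol, and promoters from RefSeq.

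The members, complexes and gene lists were chosen with earlier results of these data known. Per comparison and complex, up to 3 called members per direction with the smallest adjusted p were named, or the best 1 where none was called, plus the complex II genes, Cyc1, Cycs, Ndufa4, the paralogs, spliced members and up to 2 called genes of each other list. Values of 2 genes are not reported here. Other members named were chosen after their values were seen.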

Additional observations from a re-analysis of the deposited data

Results flagged for a closer look

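Each value here is the highest or lowest of 4 libraries of a group and lies far from the other 3 for their whole range. Of 268 sets of 4 values, 25 met this criterion, where chance gives about 1 in 20.

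At 3 weeks, replicate 1 had the highest Cox4i1 (233 CPM), Cox6a1 (85.1 CPM) and Ndufb9 (175 CPM). Replicate 2 had the lowest Atp5g1 (7.13 CPM) and replicate 4 the lowest Sdhd (8.59 CPM). In 5 months SYN, replicate 4, the library with high nuclear RNA, had the lowest Atp5k (11.5 CPM) and the highest share of minor Cox8 forms (0.793%), and replicate 3 had the highest Atp5g2 (0.0816 CPM, 1 count) where the other 3 libraries had none. In TH, replicate 4, the library with high choroid plexus markers, had the highest Cox8b (2.49 CPM), the highest share of minor Cox8 forms (11.3%) and the highest mitochondrial sums of complex I (9780 CPM) and complex III (3210 CPM). Replicate 1 of TH had the highest Cox4i2 (0.983 CPM).

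At 19 months, replicate 1, the library with the high mitochondrial share, had the highest mitochondrial sums of complex I (36700 CPM), complex III (11800 CPM), complex IV (25400 CPM) and complex V (3730 CPM). The same library had the highest nuclear sums of complex I (1120 CPM) and complex II (257 CPM), and the highest Cox6a1 (74.6 CPM) and Sdha (191 CPM). Replicate 2 had the lowest Ndufa3 (15.2 CPM) and Ndufa8 (29.2 CPM), and the highest Atp5g2 (1.11 CPM, 16 counts) and Cox8c (0.139 CPM, 2 counts) where the other 3 libraries had none.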

How the results depend on the processing

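Between SYN and TH the number of members called higher ran from 24 to 30 with single libraries left out and of those called lower from 4 to 7. Upper-quartile scaling gave 12 lower and a median of 0.0327, where the median of all genes moved from -0.0495 to -0.191. At 5 months against 3 weeks the members called higher ran from 1 to 5 and those lower from 19 to 27 with single libraries left out, and at 19 months against 3 weeks from 1 to 5 and from 6 to 13. At 19 months against 5 months, 3 members were called higher with no filter, 3 with the replicate block, 3 with the DESeq2 Wald test and 3 in the 8 libraries compared alone, and 0 to 1 with single libraries left out, the 1 without 5 months SYN replicate 2. The cause was not tested. With the replicate block there were 29 higher and 5 lower between SYN and TH, 4 and 27 at 5 months against 3 weeks, and 4 and 12 at 19 months against 3 weeks. Of the named calls, that of Ndufv2 between SYN and TH was lost with the block. In the count headers same-numbered SYN and TH libraries also share a further number, which may mark a shared preparation, though the labels do not say so. They had correlations of 0.202, 0.0384, 0.0703 and 0.216, not all over 0.1, while SYN and TH libraries of unlike number had -0.168 to 0.117. The numbers were not taken as a pairing in the main fit, but these values cannot exclude a shared preparation. If there was one, the main fit of SYN and TH ignores it, and the fit with the replicate block takes it into account. Libraries of different ages share no such further number in the headers, so the block has no such basis between ages. At a threshold of 0.01 none of the members passed in the authors' DIEGO tables. Of 60 calls on named genes, 40 held under every alternative run, and no called value changed sign. Of 3225 alternative values of named genes, 82 changed sign where neither value was called. Genes with too few counts, such as Cox8c and Atp5g2, were not tested.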
